A study of Mus musculus with 2 samples.

Results

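Tropomyosins are the coiled-coil proteins that run along actin filaments, and the mouse encodes them in 4 genes: Tpm1, Tpm2, Tpm3 and Tpm4. These genes were taken by symbol and joined by gene identifier to the deposited gene and transcript tables, where they make up 4 of 55536 annotated genes and 45 of 141864 transcripts. Total RNA had been sequenced from the gastrocnemius, a large calf muscle, of 2 male pups of the hybrid strain B6CASTF1/J, 4 days after birth, and the labels name no transgene or treatment. The input was 300 ng of RNA per library, with ERCC spike-ins, and the labels number the animals separately under 1 shared donor record. Both libraries belong to 1 group, so values are given per library and as mean ± SD (n = 2), and no test between groups was possible. An exact two-sided sign-flip test on 2 values cannot give a p below 0.5.

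Tropomyosin molecules pair into dimers, join head to tail and lie in the groove of the actin filament. In striated muscle they work with the troponin complex: calcium binding to troponin shifts tropomyosin and exposes the sites where myosin attaches. In other cells tropomyosins mark actin populations and control which myosins, severing proteins and branching factors reach them. Each gene makes several proteins by alternative start sites and splicing. Long, high molecular weight forms begin with exon 1a and short, low molecular weight forms with exon 1b. Exon 6 exists in Tpm1, Tpm2 and Tpm3 as a mutually exclusive pair, 6a and 6b. The coding end is drawn from a set of alternatives, of which exon 9a is the one known from striated muscle and exon 9d the one known from smooth muscle and non-muscle cells.

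Expected counts assigned to annotated genes summed to 35281187 for replicate 1 and 32301531 for replicate 2. Abundance is given in TPM (a level divided by transcript length and scaled to a fixed sum) from 2 deposited quantifications, here called alignment-based and read-based. The 7 skeletal fibre marker genes were all at 1 TPM or more in both libraries and summed to 27489 and 25579 TPM, and of the 5 cardiac markers 1 was at that level in both, Myh6 at 48.2 and 60.4 TPM. The cardiac list summed to 49.9 and 61.3 TPM, with Nppa at 0 counts in both libraries. Replicate 2 stood apart in epidermal genes. The 6 epidermal genes Krt1, Krt5, Krt10, Krt14, Krtdap and Flg summed to 10.7 TPM in replicate 1 and 956 TPM in replicate 2, and their part in the results below was not tested.

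The alternative exons differ in sequence, and whether reads resolve the choice between them was not tested. Exon 6 is shown because 6a or 6b separates the main isoforms of Tpm2 and of Tpm3. The leading Tpm1 isoforms share 6b. The coding exons, 76 nt each, are given 5′ to 3′ from the GENCODE M21 transcripts, with capitals at the positions where the 2 exons of a gene differ.
Tpm1 exon 6a: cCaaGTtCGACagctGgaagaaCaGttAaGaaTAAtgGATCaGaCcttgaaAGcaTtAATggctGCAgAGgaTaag
Tpm1 exon 6b: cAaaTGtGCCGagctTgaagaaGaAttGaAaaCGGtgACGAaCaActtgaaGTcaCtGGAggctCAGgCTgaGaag
Tpm2 exon 6a: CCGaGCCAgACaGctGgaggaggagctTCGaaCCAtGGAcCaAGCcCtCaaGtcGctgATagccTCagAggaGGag
Tpm2 exon 6b: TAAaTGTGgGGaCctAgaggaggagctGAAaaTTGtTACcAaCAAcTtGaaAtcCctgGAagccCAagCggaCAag
Tpm3 exon 6a: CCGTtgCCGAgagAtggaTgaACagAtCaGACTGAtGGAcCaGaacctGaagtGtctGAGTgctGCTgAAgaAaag
Tpm3 exon 6b: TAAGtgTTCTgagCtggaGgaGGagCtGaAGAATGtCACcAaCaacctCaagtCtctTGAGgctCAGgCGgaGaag
Tpm4 exon 6: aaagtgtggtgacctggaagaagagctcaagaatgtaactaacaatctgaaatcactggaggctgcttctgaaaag
Within a gene the pair matched at 43 of 76 positions in Tpm1, 41 in Tpm2 and 39 in Tpm3. Between genes the same exon matched better: exon 6b at 56 to 58 positions and exon 6a at 47 to 50. Tpm4 has a single exon 6, which matched the 6b exons at 54 to 56 positions and the 6a exons at 33 to 42. In mm10 the Tpm1 pair lies at chr9:67032466-67032541 (6a) and chr9:67031951-67032026 (6b), on the minus strand. The Tpm2 pair lies at chr4:43519003-43519078 and chr4:43518644-43518719, on the minus strand, and the Tpm3 pair at chr3:90088401-90088476 and chr3:90089048-90089123, on the plus strand. Exon 6 of Tpm4 lies at chr8:72146452-72146527, on the plus strand.

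**Figure D1:**
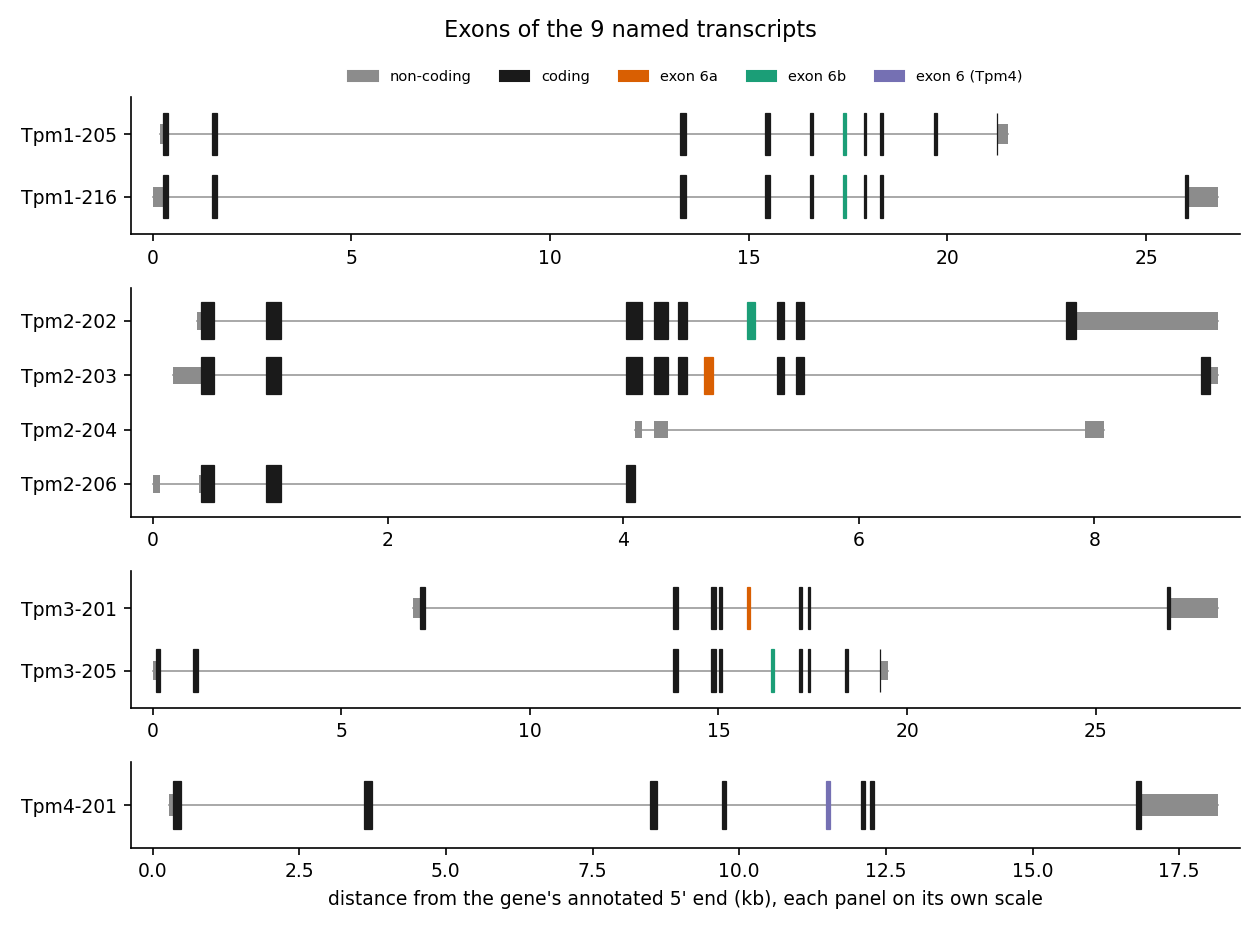
Exons of the 9 transcripts that reached 5% of their gene by either quantification, drawn against distance from the annotated 5′ end of the gene in kb, with a separate scale for each gene. Tall black boxes are coding, low grey boxes non-coding, and colour marks exon 6; Tpm2-204 and Tpm2-206 cover only a few exons each.

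The coding part of the final exons separates striated from other forms as well, and the Tpm1 and Tpm2 versions are shown because the quantifications divide reads differently between them. Capitals again mark positions where exons 9a and 9d of the gene differ, and also the last base of Tpm1 exon 9d, which has no counterpart in 9a.
Tpm1 exon 9a: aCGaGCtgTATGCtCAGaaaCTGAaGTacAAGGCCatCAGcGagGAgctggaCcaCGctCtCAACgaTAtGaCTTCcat
Tpm1 exon 9d: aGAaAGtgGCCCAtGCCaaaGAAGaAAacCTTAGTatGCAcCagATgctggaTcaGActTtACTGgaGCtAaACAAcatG
Tpm2 exon 9a: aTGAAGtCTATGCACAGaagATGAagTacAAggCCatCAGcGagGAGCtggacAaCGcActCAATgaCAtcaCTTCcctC
Tpm2 exon 9d: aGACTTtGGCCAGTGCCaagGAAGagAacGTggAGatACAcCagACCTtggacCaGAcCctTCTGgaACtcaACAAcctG
Exon 9a of Tpm1 matched its exon 9d at 34 of 79 compared positions, and exon 9a of Tpm2 matched its exon 9d at 33 of 80. The 9a exons of Tpm1, Tpm2 and Tpm3 matched each other at 65 to 70 of 79 positions. The stretches printed lie at chr9:67029664-67029742 and chr9:67023362-67023441 for Tpm1 and at chr4:43515924-43516003 and chr4:43514782-43514861 for Tpm2, in mm10 on the minus strand. In Tpm1 and Tpm3 exon 9a is followed by a short coding part of exon 9b that holds the stop codon, whereas in Tpm2 exon 9a holds the stop codon itself.

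Tpm1 and Tpm2, the genes of the main fast and beta striated tropomyosins, were among the most abundant messages of the muscle, and Tpm3 and Tpm4 were far lower. Tpm1 (chr9:67022590-67049406, minus strand) stood at 3251 TPM in replicate 1 and 2751 in replicate 2, or 3001 ± 354. Tpm2 (chr4:43514711-43523765, minus strand) stood at 3807 and 3421 TPM, or 3614 ± 272. Both were lower in replicate 2, and the Tpm1 and Tpm2 ranges did not overlap. Tpm3 (chr3:90072649-90100902, plus strand), the gene of the slow-fibre form and of several cytoskeletal forms, stood at 207 and 218 TPM, or 212 ± 7.53. Tpm4 (chr8:72134975-72153142, plus strand), whose mouse products are cytoskeletal, stood at 85.4 and 93.4 TPM, or 89.4 ± 5.63. Both of these were higher in replicate 2, and neither range came near that of another member. Among 22015 protein-coding genes outside the mitochondrial genome, by alignment-based TPM, Tpm2 ranked 9 in both libraries, Tpm1 ranked 11 and 10, Tpm3 244 and 247, and Tpm4 728 and 649. By read-based TPM the leading genes ranked 11 and 12 (Tpm1) and 12 and 13 (Tpm2).

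As shares of the summed tropomyosin TPM, Tpm2 held 52.3% ± 0.696, Tpm1 43.3% ± 1.27, Tpm3 3.09% ± 0.383 and Tpm4 1.30% ± 0.197. Tpm1 and Tpm2 together held 96.0% in replicate 1 and 95.2% in replicate 2. In bulk tissue, fewer cells of a type and less RNA per cell cannot be told apart, so these shares describe the whole muscle sample, with its vessels, connective tissue and nerve. By the read-based quantification Tpm1 held 49.4% ± 1.61, Tpm2 45.9% ± 1.15, Tpm3 3.29% ± 0.249 and Tpm4 1.41% ± 0.216. The read-based levels were higher throughout, at 4841 ± 531 TPM for Tpm1 and 4485 ± 234 for Tpm2. When TPM was rescaled to protein-coding genes alone, Tpm1 stood at 7184 alignment-based and 6612 read-based, and Tpm2 at 8652 and 6124. On the same scale Tpm3 stood at 509 and 438, and Tpm4 at 214 and 187.

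**Figure D2:**
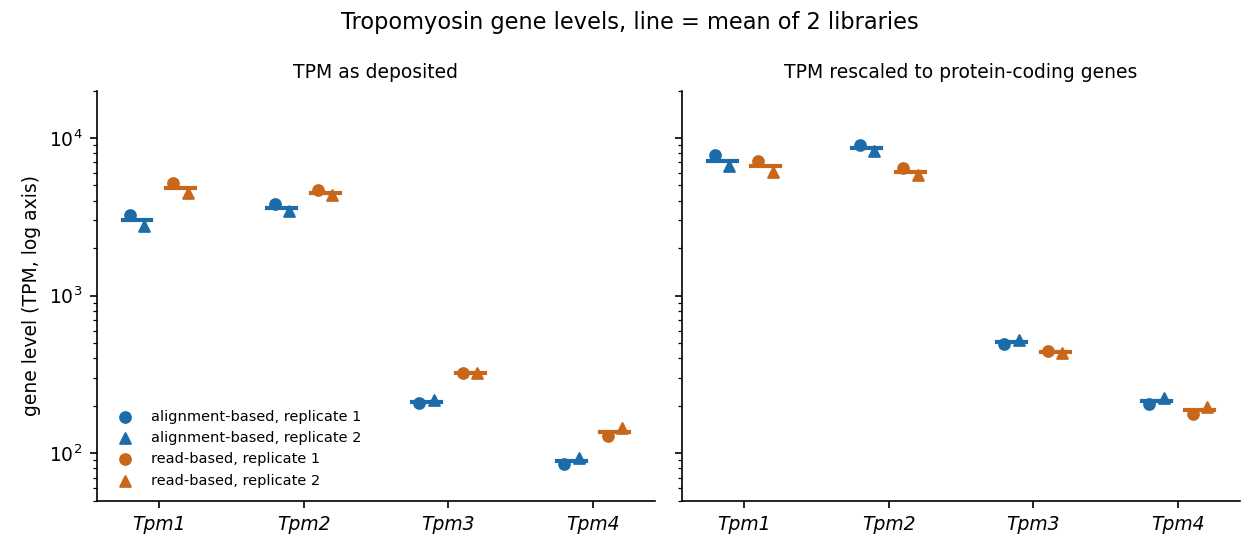
Levels of the 4 genes in TPM on a log axis, as deposited (left) and rescaled to protein-coding genes (right), with circles for replicate 1, triangles for replicate 2, lines for the mean, blue for alignment-based and orange for read-based values. Tpm1 and Tpm2 lie more than 10-fold above Tpm3 in both panels, and their order changes between the quantifications.

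Which of the leading genes was higher differed between the quantifications and between sets of transcripts. The log2 ratio of Tpm2 over Tpm1 was 0.23 in replicate 1 and 0.31 in replicate 2 by alignment-based TPM, and -0.17 and -0.05 by read-based TPM. Of the Tpm2 value, 43.8% ± 0.0300 came from Tpm2-204 and Tpm2-206, transcripts of 337 and 401 nt that together held 11.0% ± 0.0494 of the gene's expected counts. The alignment-based tables gave them effective lengths of 238 and 302 nt. The read-based effective lengths were 79.6 and 106 nt in replicate 1, and there Tpm2-204 had 0 estimated counts in both libraries. Over complete coding transcripts alone, a set chosen after these values were seen, the log2 ratio of Tpm2 over Tpm1 was -0.58 and -0.49 by alignment-based TPM and -0.38 and -0.30 by read-based TPM. On that basis Tpm1 was higher in both libraries by both TPM values. In expected counts, not divided by length, Tpm2 had 121168 and 101894 and Tpm1 had 105945 and 83758, and over complete coding transcripts Tpm2 had 107222 and 90182 and Tpm1 had 104056 and 82372.

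Tpm1 was led by its striated isoform, by a share that differed between the quantifications. Of 21 annotated transcripts, 16 of them protein coding, Tpm1-205 held 94.9% and 94.6% of the gene's TPM in the alignment-based tables. This transcript joins exons 1a, 2b, 6b, 9a and 9b and encodes the alpha striated tropomyosin. By read-based TPM it held 71.8% and 73.4%, and Tpm1-216, which has the same exons up to exon 8 but ends in exon 9d, held 16.0% and 16.4%. The alignment-based share of Tpm1-216 was 0.985% and 1.22%. In counts the gap was between 1685 and 1649 expected counts (alignment-based) and 28809 and 23187 estimated counts (read-based). Tpm1-216 shares 755 of its 1799 windows of 100 nt with Tpm1-205 and holds 1044 that Tpm1-205 lacks. Against all annotated transcripts, 131 windows of Tpm1-216 occur in no other. Tpm1-205 has 1109 windows and none that is its own. The remaining 19 transcripts summed to 4.12% by alignment-based and 11.2% by read-based TPM. Among them Tpm1-203, the 6a counterpart of Tpm1-205, stood at 4.86 and 3.88 TPM alignment-based and at 252 and 201 TPM read-based.

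The exon classes of Tpm1 restate this at the level of single choices. Transcripts that begin with exon 1a held 97.1% ± 0.0224 of Tpm1 TPM and those with exon 1b, the low molecular weight forms, 0.507% ± 0.135. Of coding transcripts with either version of exon 2, those with 2b, the version known outside smooth muscle, held 99.5% ± 0.102, and those with 2a held 0.493% ± 0.102. Exon 6b was in 99.7% ± 0.0717 of TPM with an exon 6 (read-based 95.3% ± 0.231). A stop codon in exon 9b accounted for 97.8% ± 0.309 of the TPM of coding transcripts with a stop codon, and one in exon 9d for 1.65% ± 0.253. Read-based, these were 82.8% ± 0.376 and 16.6% ± 0.286, so 9d in place of 9b was the choice on which the quantifications differed most for this gene.

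Tpm2 was divided between a striated and a non-striated isoform in both libraries. Tpm2-202, with exons 6b and 9a, encodes the beta tropomyosin of skeletal muscle and stood at 1500 and 1364 TPM. Tpm2-203, with exons 6a and 9d, encodes the form known from smooth muscle and fibroblasts and stood at 626 and 547 TPM. Both were lower in replicate 2, and the 2 isoforms were clearly separated in each library. Exon 6b, and with it exon 9a, accounted for 71.0% ± 0.587 of the coding TPM with an exon 6. The read-based share was 56.8% ± 0.955 and the share of expected counts, not divided by length, was 82.1%. The smooth muscle and pericyte markers summed to 308 and 319 TPM and the fibroblast markers to 5382 and 5342 TPM in the same libraries. Their part in the level of Tpm2-203 was not tested.

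The pairing of exon 6 with the coding end was complete in the Tpm2 estimates. Tpm2-201, the only annotated transcript that joins 6a to 9a, was at 0 counts in both libraries by both quantifications, and no annotated transcript joins 6b to 9d. Tpm2-201 has no window of 100 nt of its own, so a count of 0 is the estimate of the programs and not a direct count of reads. Tpm2-202 and Tpm2-203 have 172 and 131 windows found in no other transcript. As alignment-based shares of the whole gene, Tpm2-202 held 39.4% and 39.9%, Tpm2-206 24.5% and 24.3%, Tpm2-204 19.3% and 19.4%, and Tpm2-203 16.5% and 16.0%. Read-based, Tpm2-202 held 47.6% and 47.7%, Tpm2-203 37.2% and 35.3%, and Tpm2-206 14.9% and 16.5%, with Tpm2-204 at 0. The 2 short entries are a processed transcript without a reading frame (Tpm2-204) and a coding model with an incomplete end (Tpm2-206). Both overlap exons shared by the long isoforms. The last exon of Tpm2-204, at 7.924 to 8.084 kb from the gene's 5′ end, lies within the final exon of Tpm2-202 and outside that of Tpm2-203.

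Tpm3 was led by its slow-muscle isoform, with a second group of cytoskeletal isoforms from an internal start. Tpm3-205, with exons 1a, 6b, 9a and 9b, encodes the slow striated tropomyosin and stood at 146 and 150 TPM, which is 70.4% and 68.7% of the gene. Tpm3-201, with exons 1b, 6a and 9d, encodes a short cytoskeletal form and stood at 30.6 and 29.6 TPM, or 14.8% and 13.6%. The libraries differed little in either isoform. Read-based shares were close for Tpm3-205, at 69.7% and 72.9%, and higher in both libraries for Tpm3-201, at 17.1% and 19.4%. Tpm3-205 has 194 windows of its own and shares 262 of 1040 windows with Tpm3-201. The slow-fibre markers Myh7, Tnnt1, Tnni1, Tnnc1, Myl2 and Myl3 summed to 1131 and 1311 TPM.

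By first coding exon, 1a held 71.4% ± 0.798 of Tpm3 TPM and 1b 17.0% ± 0.571, and the read-based shares were 71.3% ± 2.30 and 20.9% ± 2.24. Exon 6b was in 81.9% ± 1.253 of coding TPM with an exon 6 and a stop in exon 9b in 78.6% ± 1.54. Transcripts with the stop in exon 9d held 21.2% ± 1.52, and these include Tpm3-202, which has exons 1b and 6b and stood at 5.31 and 6.32 TPM. Retained-intron models, 8 of the 16 Tpm3 transcripts, held 10.6% and 10.1% of the gene's TPM, against 0.433% and 0.452% for the 1 such model of Tpm1. Read-based, the Tpm3 share of these models was 4.61% and 3.85%. The estimate of Tpm3-204, which joins 1a to 6a and 9d and was chosen after its values were seen, differed between the libraries: it had 56.3 expected counts in replicate 1 and 410 in replicate 2, and under 1 estimated count in each library by the read-based quantification. A single window of 100 nt belongs to Tpm3-204 alone. This gene also shares 1020 windows with Tpm3-rs7, a separate locus of near-identical sequence, to which 838 and 869 expected counts were assigned, so the split of reads between the 2 is uncertain.

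The 2 starts of Tpm3 are shown because the 1a and 1b shares rest on them. The 250 bases before each start are RefSeq sequence on GRCm38.p6, the assembly behind mm10, plus strand, with capitals at matches to the letters CAGCTG, the E-box variant read by muscle bHLH factors.
Tpm3 upstream start, chr3:90072401-90072650: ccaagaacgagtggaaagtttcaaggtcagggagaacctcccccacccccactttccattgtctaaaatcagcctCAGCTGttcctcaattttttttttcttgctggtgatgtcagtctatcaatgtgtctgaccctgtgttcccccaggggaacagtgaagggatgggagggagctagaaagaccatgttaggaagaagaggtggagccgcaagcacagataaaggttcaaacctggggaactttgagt
Tpm3 internal start, chr3:90079271-90079520: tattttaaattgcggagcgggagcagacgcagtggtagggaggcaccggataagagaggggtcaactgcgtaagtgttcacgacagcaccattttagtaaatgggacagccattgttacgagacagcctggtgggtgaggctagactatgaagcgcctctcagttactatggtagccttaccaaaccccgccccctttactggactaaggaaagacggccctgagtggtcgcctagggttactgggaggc
The upstream window holds 2 CpG dinucleotides and the internal one 11, with GC contents of 48.8% and 53.6%. CAGCTG, which reads the same on both strands, occurs once in the upstream window and not in the internal one, and 13.0% of 32851 promoter windows of this length hold it. The broader letters CANNTG, which include CAGCTG, occur once in each window and in 66.2% of all windows. CATTCC, the letters of the muscle MCAT element, searched on both strands, occur in neither and in 12.6% of all windows. Matches to the MEF2 site and to the CArG box of serum response factor were also looked for on both strands: neither Tpm3 window holds one, and 2.92% and 1.47% of all windows do.

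Tpm4 rested on a single transcript. Tpm4-201, with exons 1b, 6 and 9d, encodes the short cytoskeletal Tpm4 protein and held all of the gene's 5069 and 5163 expected counts. The second model, Tpm4-202, was at 0 counts in both libraries by both quantifications. Of the 2029 windows of Tpm4-201, 1689 occur in no other annotated transcript, the largest number of the 9 named transcripts. A further 155 are shared with the processed pseudogene Gm7809, which was assigned 27.7 and 37.2 expected counts. Among the non-muscle partners of tropomyosin the myosin heavy chains Myh9 and Myh10 stood at 69.7 and 72.4 TPM and at 28.4 and 28.3 TPM, and the calponins Cnn3 and Cnn2 at 87.2 and 97.4 TPM and at 22.4 and 20.8 TPM.

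**Figure D3:**
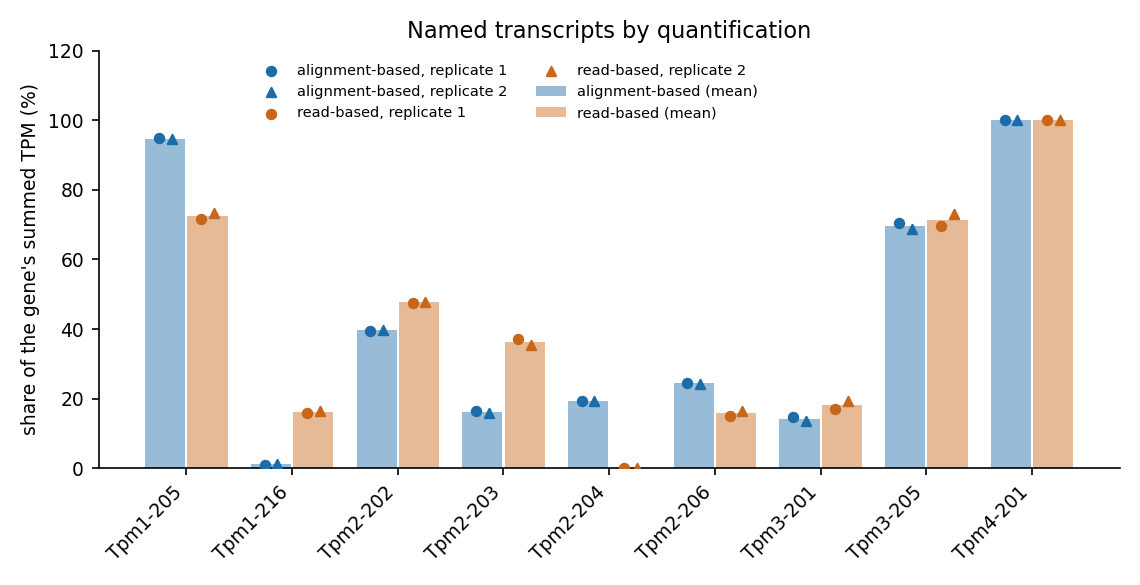
Share of its gene's summed TPM in percent for the 9 named transcripts; bars are the mean of 2 libraries, circles replicate 1 and triangles replicate 2, blue alignment-based and orange read-based. Replicates nearly coincide, while the quantifications differ more than the replicates do for Tpm1-205, Tpm1-216, Tpm3-201 and all 4 Tpm2 transcripts.

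Summed over the family, 3 transcripts carry exons 1a, 6b and 9a with the usual striated end: Tpm1-205, Tpm2-202 and Tpm3-205. Tpm1-201, which reads through from exon 9a and stood at 13.8 and 13.3 TPM, was set aside from them. Together the 3 transcripts held 64.4% and 63.5% of all tropomyosin TPM, 59.9% and 60.3% by read-based TPM, and 80.3% and 79.4% of expected counts. Within that striated sum of 4732 and 4116 TPM, Tpm1-205 gave 3086 and 2603 TPM and Tpm3-205 gave 146 and 150 TPM. The complete coding transcripts that begin with exon 1b, from Tpm1, Tpm3 and Tpm4, held 1.84% and 2.25% of tropomyosin TPM, and Tpm4-201 was the most abundant of them. The other complete transcripts with exon 1a, led by Tpm2-203, held 9.49% and 9.59%, against 30.3% and 28.6% by read-based TPM. Incomplete and non-coding models made up the rest, at 24.3% and 24.7%, and 7.93% and 8.71% read-based.

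**Figure D4:**
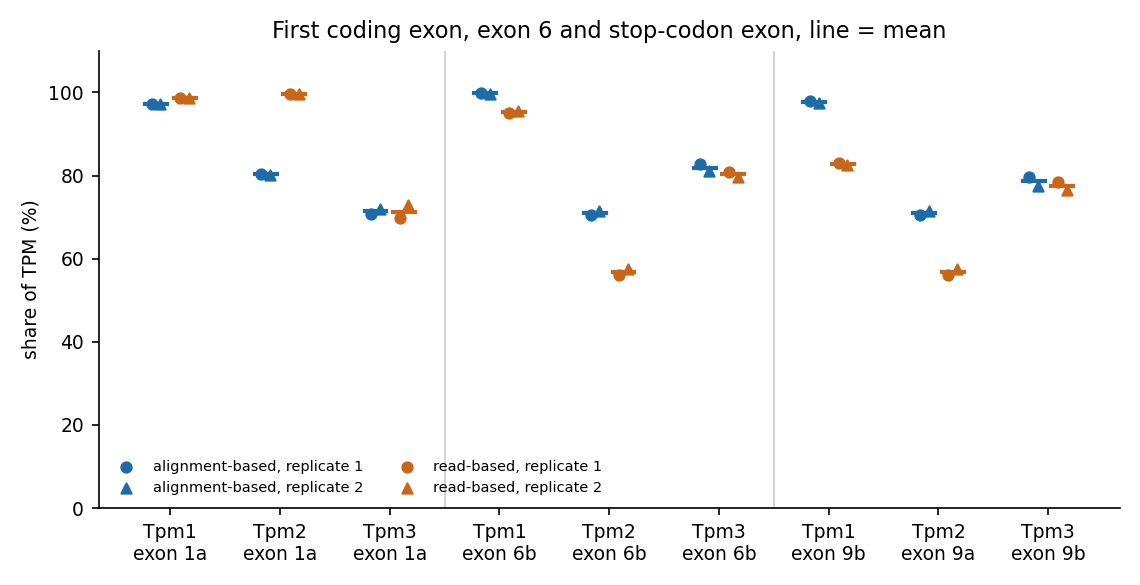
Share of TPM in percent that falls on exon 1a (of the whole gene), exon 6b (of coding transcripts with an exon 6) and the stop-holding exon 9b or 9a (of coding transcripts with a stop codon), with circles for replicate 1, triangles for replicate 2 and lines for means. For Tpm2 the 6b and 9a shares are 71.0% alignment-based (blue) and 56.8% read-based (orange), while those of Tpm3 nearly coincide.

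Between the animals, the scaled counts of Tpm1 and Tpm2 were lower in replicate 2 and those of Tpm3 and Tpm4 slightly higher. The log2 ratio of scaled counts, replicate 2 over replicate 1, with a 95% counting interval, was -0.26 (-0.27 to -0.24) for Tpm1 and -0.17 (-0.18 to -0.16) for Tpm2. It was 0.09 (0.04 to 0.13) for Tpm3 and 0.11 (0.05 to 0.17) for Tpm4. The intervals cover counting error only, and each direction held under every scaling tried, by spike-in counts included. None of the 4 genes passed a log2 ratio of 0.32 in either direction, which 13.8% of the 12421 genes counted 100 times or more on average did, and 1.7% of those genes passed 2-fold. The ratio was larger in size than that of 79.2% of those genes for Tpm1, 62.1% for Tpm2, 35.8% for Tpm3 and 44.6% for Tpm4. The quartiles of the 12421 ratios were -0.13 and 0.12. Tpm1 and Tpm2 lay below the lower quartile, and Tpm3 and Tpm4 lay between the quartiles. Many of the 12421 genes had fewer counts than the tropomyosin genes, and so more counting error. Of the 4854 genes counted 1000 times or more on average, 6.37% passed 0.32.

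**Figure D5:**
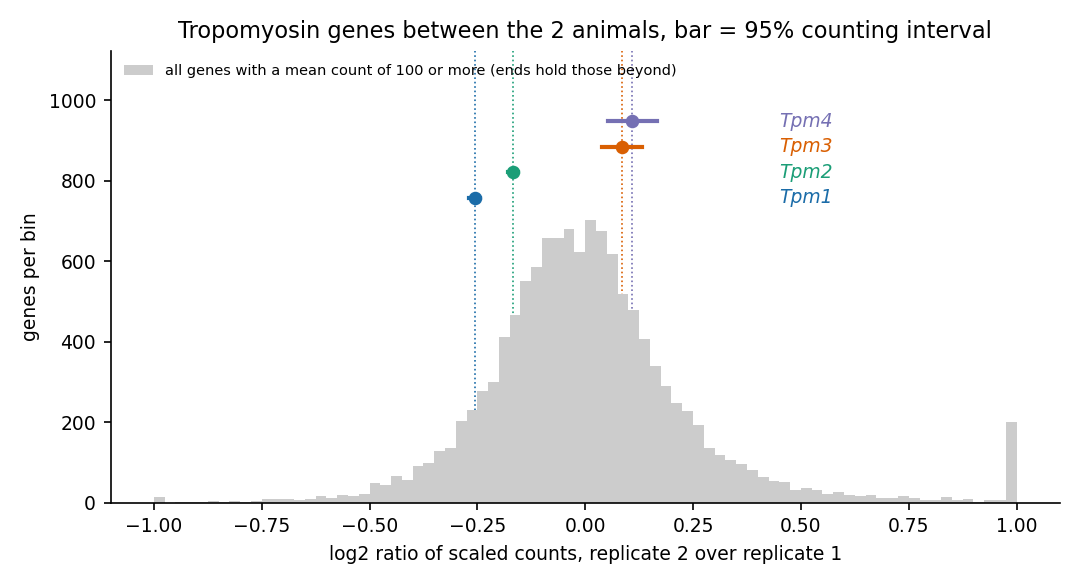
Log2 ratio of scaled counts, replicate 2 over replicate 1: grey bars count all 12421 genes of sufficient depth (mean count at least 100), with ratios beyond the axis placed in the end bins, and coloured points with 95% counting intervals are the tropomyosin genes. Tpm1 and Tpm2 lie below the lower quartile of these genes (-0.13), and Tpm3 and Tpm4 lie right of 0 and below the upper quartile (0.12).

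Fibre-type markers also differed between the libraries. All 6 fast-fibre markers were lower in replicate 2 (summed level 24896 and 22095 TPM, median log2 ratio -0.26), and all 6 slow-fibre markers were higher (median 0.22). The 7 general fibre markers were all lower (median -0.15). Over all 12421 genes the median was -0.01, and 52.2% were lower in replicate 2. The slow isoform Tpm3-205 itself had a log2 ratio of 0.02 (-0.04 to 0.08), below the slow-fibre median. Whether fibre type or the higher epidermal gene levels of replicate 2 have a part in the tropomyosin ratios was not tested.

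The partners of tropomyosin on the thin filament were nearly all present. Of 42 listed genes 41 were found under their symbol, and 40 of these stood at 1 TPM or more in both libraries. The exception was Tnni3, the cardiac troponin I, at 1.24 and 0.350 TPM. The share of all genes at that level was not counted, so such counts of members, here and below, describe the lists only. Among the 8 troponin genes the fast set led: Tnnt3, which anchors troponin to tropomyosin, stood at 4415 and 3727 TPM, the calcium sensor Tnnc2 at 4357 and 3694 TPM, and the inhibitory subunit Tnni2 at 3272 and 2679 TPM. The slow set was lower, with Tnnt1 at 195 and 226 TPM, Tnnc1 at 155 and 183 TPM and Tnni1 at 121 and 144 TPM. By alignment-based TPM, Tpm1 and Tpm2 thus lay near the level of the fast troponins and Tpm3 near that of the slow troponins, in both libraries. By read-based TPM the fast troponins stood above Tpm1 and Tpm2. The lowest of them, Tnni2, was at 6201 and 5210 TPM, against 5217 and 4466 TPM for Tpm1.

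Of the 6 actins 1 exceeded Tpm1 and Tpm2 in TPM. Skeletal alpha-actin (Acta1) stood at 13742 and 12991 TPM, cardiac alpha-actin (Actc1), which is also made in immature skeletal muscle, at 693 and 1027 TPM, and the smooth muscle actins Acta2 at 175 and 185 TPM and Actg2 at 7.90 and 6.01 TPM. The cytoplasmic actins Actb and Actg1 stood at 1146 and 1250 TPM and at 360 and 367 TPM. All 11 genes for filament ends and length were at 1 TPM or more, led by the giant ruler protein nebulin (Neb) at 990 and 957 TPM, Klhl41, a kelch-repeat protein of the sarcomere, at 253 and 217 TPM, and the nebulin relative Nrap at 142 and 110 TPM. Tmod4, the skeletal muscle tropomodulin that caps pointed ends and binds tropomyosin, stood at 112 and 91.5 TPM. Of these 11 genes 9 were lower in replicate 2, none was tested between groups, and the median log2 ratio was -0.23.

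Splicing factors known to act on tropomyosin exons were expressed in both libraries, 9 of 9 found at 1 TPM or more. Rbfox2, a factor that promotes muscle exons, was the highest at 138 and 119 TPM. Ptbp1, known as a repressor of the muscle exons of tropomyosin genes, stood at 69.1 and 81.0 TPM, close to Rbm24, a muscle splicing factor, at 77.1 and 84.0 TPM. Mbnl1 and Mbnl2, which direct postnatal splicing changes in muscle, stood at 77.3 and 74.5 TPM and at 85.0 and 77.4 TPM. Of the 9 factors 4 were higher and 5 lower in replicate 2, where 52.2% of the 12421 genes were lower. All 7 non-muscle and smooth muscle partners were at 1 TPM or more and none reached 100 TPM. Caldesmon (Cald1), which binds tropomyosin on non-striated filaments, stood at 51.9 and 50.9 TPM, while smooth muscle calponin (Cnn1) stood at 3.05 and 4.02 TPM.

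Distance in level was Euclidean, in log2(TPM + 0.1) of the alignment-based values over the 2 libraries. The genes closest to each tropomyosin gene gave a further reference point. For Tpm1 they were Tnni2, at a distance of 0.04, and the collagen gene Col1a1 at 0.26, and for Tpm2 they were Tnnc2 at 0.22 and Tnnt3 at 0.25. For Tpm3 they were Hnrnpa2b1 and Tppp3, and for Tpm4 the histone genes Hist1h4c and Hist1h2bn, at distances of 0.03 to 0.05. A match over 2 libraries of 1 tissue describes a similar level only. Of the 4 members, Tpm4 alone overlaps other annotated genes, Gm16091 and Gm26586 on the opposite strand, which had 1 expected count each in each library.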

How the data were processed

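Total RNA-seq of 1 group of 2 muscle libraries was analysed. Expected counts per gene and per transcript were deposited under RSEM column names, per the file headers. The authors' TPM divides by an effective length, which is the length minus 99 nt in the alignment-based tables. The percent of its gene held by each transcript, deposited as a column, was recomputed from TPM. A second deposited table holds estimated counts and TPM made directly from reads under kallisto column names. The deposited notes name mm10 and GENCODE M21. Which programs were used, and whether counting used strand, is not given in the sources used here. Near-identical transcripts share reads by estimation.

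Levels and shares are means over libraries. Exon classes came from annotated coding segments, named in order along the gene. Transcripts were named at 5% or more of their gene by either quantification. Between-library ratios used expected counts with TMM scaling in edgeR 4.0.16 (R 4.3.3), with rounding to whole numbers for scaling and the exact (Clopper-Pearson) 95% counting intervals; DESeq2 1.42.0 size factors were an alternative. Counts of 3 or fewer in both libraries gave no ratio. Windows of 100 nt were compared by exact match among all annotated transcripts. Reads carry no molecular identifiers in these files. The scaling step was tested on simulated data. Members, lists and rules were chosen with earlier results of these data known. Qki had no row under that symbol. Promoter windows are from RefSeq (GRCm38.p6), and all 4 genes matched.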

Additional observations from a re-analysis of the deposited data

How the results depend on the processing

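Each gene had 5069 counts or more in each library. Overlapping transcripts share reads by estimation, and the TPM of a gene is the sum over its transcripts. Isoform values and gene values both carry this limit. The 95.6% share of Tpm1 and Tpm2 became 94.3% from counts not divided by length and 94.7% over complete coding transcripts, a set added after seeing the data. The log2 ratio of Tpm2 over Tpm1, 0.27, reversed to -0.11 in the read-based tables and to -0.53 over complete coding transcripts. Read-based, with counts, over coding and over complete coding transcripts, Tpm1-205 held 72.6%, 94.2%, 97.1% and 97.1%, Tpm2-202 held 47.6%, 72.7%, 49.4% and 71.0%, and Tpm3-205 held 71.3%, 59.7%, 77.8% and 78.6% (68.3% by posterior mean TPM). Exon 1a of Tpm3 held 62.9% by counts, 79.9% over coding and 80.7% over complete coding transcripts. Exon 6b of Tpm2 held 56.8% read-based and 82.1% by counts, and exon 9b of Tpm1 82.8% and 96.4%. The share of genes past a log2 ratio of 0.32, 13.8%, was 27.1% at a mean count of 10 and 6.37% at 1000, and past 2-fold, 1.7% in the main setting, 6.36% and 0.453%. The cause was not tested, except that denominators shrink by construction where transcripts are left out. Of 175 alternative values 68 moved by more than their error (counts and percentages of genes: 1.5-fold) and 2 reversed. With 2 libraries, leaving out 1 cannot shift a mean by more than its SD, so those values say nothing of stability. The 175 include them, 16 and 8 values without replicate 1 and 16 and 8 without replicate 2. None of them could be labelled as moved. The ratio between libraries has no value with 1 library left out. No paired analysis was possible because there is 1 group.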
